A study of Mus musculus with 8 samples.

Results

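ATP-binding cassette (ABC) transporter genes were compared between the sorted cell fractions of MMTV-Neu mammary tumors. A gene was taken as a member where its transcript cluster on the Affymetrix Mouse Gene 1.0 ST array carried exactly 1 symbol of the form Abc, a subfamily letter from a to g and a digit. This gave 48 of the 19938 genes measured, 16 in subfamily A, 9 in B, 10 in C, 3 in D, 1 in E, 3 in F and 6 in G. Tap1, Tap2 and Cftr belong to the same protein family under other symbols and are given beside their relatives. The 8 arrays came from primary tumors under 1.0 cm across in FvB mice that carry the MMTV-Neu transgene, in which a mammary tumor virus promoter drives the rat form of Erbb2 in mammary epithelium. All groups share this genotype, and no age or treatment of the mice is given in the labels. From each of the tumors N251, N260 and N283, and from an equal mix of N222 and N229, flow sorting gave cells labelled tumor-initiating (TIC) and cells labelled CD24-negative, with 4 arrays of each fraction. The labels do not name the markers of the TIC gate. The growth protocol numbers 2 of the tumors differently from the sample titles, which were followed.

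ABC transporters are membrane proteins that bind and hydrolyse ATP to carry a substrate across a membrane. Subfamilies A and G mostly move lipids and sterols, B and C hold the multidrug exporters and organelle transporters, and D acts in peroxisomes and lysosomes. Subfamilies E and F have the ATP-binding domains but no membrane span, and act on ribosomes. Abcg2, the breast cancer resistance protein, exports the dye that defines side-population cells, is used as a stem cell marker in several tissues, and secretes riboflavin into milk in the mammary gland.

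All values are log2 intensities as processed by the authors, and a difference is the TIC minus the CD24-negative value of the same tumor. The CD24-negative fraction held strong leukocyte signal and also strong epithelial signal. Of 11 measured macrophage markers 9 were called lower in the TIC fraction (a call is defined below) and 10 were lower in all 4 tumors. The 4 lowest were Lyz2 (-5.77), Mpeg1 (-5.43), C1qb (-5.42) and Csf1r (-5.06), genes of lysozyme, a perforin-like protein, complement and a growth factor receptor. The marker mean ran from 6.28 to 6.58 in the TIC arrays and from 9.42 to 11.78 in the CD24-negative arrays. The 9 luminal markers averaged 10.51 to 10.61 in the TIC arrays and 9.64 to 10.52 in the CD24-negative arrays, and 0 were called. Cd24a, the gene of the sort antigen, reached 12.32 ± 0.21 in TIC arrays and was still at 11.22 ± 0.67 (SD, n = 4) in the fraction labelled CD24-negative. In bulk RNA of this kind, fewer cells of a type and less RNA per cell cannot be told apart. The part of leukocyte RNA in any difference below was not tested.

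Abcc3 was the only ABC gene called. A call means an adjusted p (Benjamini-Hochberg, over all genes) under 0.05 in limma with the tumor as a block. It fell in the TIC fraction, which makes 1 of 48 members called lower, beside 1.09% of all genes. Called higher were 0 of 48, beside 0.863% of all genes, and 1.96% of all genes were called in either direction. Since so few members passed, most values below describe genes that were not called. At an unadjusted p under 0.05, 14 members were lower and 2 higher (29.2% and 4.17% of members), where 8.08% and 14.2% of all genes were. In other fits the counts changed. A random block for the tumor gave 5 members called lower (Abcc3, Abca9, Abcd2, Abcb1b and Abca7) and 1 higher (Abcg2), beside 3.04% and 2.16% of all genes. Array weights gave 5 lower (Abcc3, Abca9, Abcd2, Abcb1b and Abcc4) and Abcg2 higher, beside 2.87% and 2.23%. Leaving out N251 gave 3 lower (Abcc3, Abca9 and Abcd2) and Abcg2 higher, beside 2.41% and 1.81%. Without the block limma called 0 members, beside 0.742% of all genes lower and 0.0502% higher. In that fit 13 members were lower and 1 higher at an unadjusted p under 0.05. The share of all genes at that level was not taken there, so these 2 counts show no trait particular to ABC genes.

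By sign alone, 17 members were lower in the TIC fraction of all 4 tumors, 8 were higher in all 4, and 23 were mixed. The shares of members are 35.4% lower and 16.7% higher, beside 11.8% and 23.2% of all genes. The 4 TIC values lay wholly below the 4 CD24-negative values for 11 members (22.9%, beside 4.68% of all genes). They lay wholly above for 2, Abcg2 and Abcd3 (4.17%, beside 5.19%). A mean difference of -1 or below was found for 7 members (14.6%, beside 3.04% of all genes), and a mean of 1 or above for 0 (beside 0.381%). The median over the 48 members was -0.07, and that over all genes 0.04. Most members thus lay near 0, and a tail of 7 genes (Abcb1b, Abcg1, Abcg3, Abca1, Abcd2, Abca9 and Abcc3) reached down to -3.32.

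**Figure D1:**
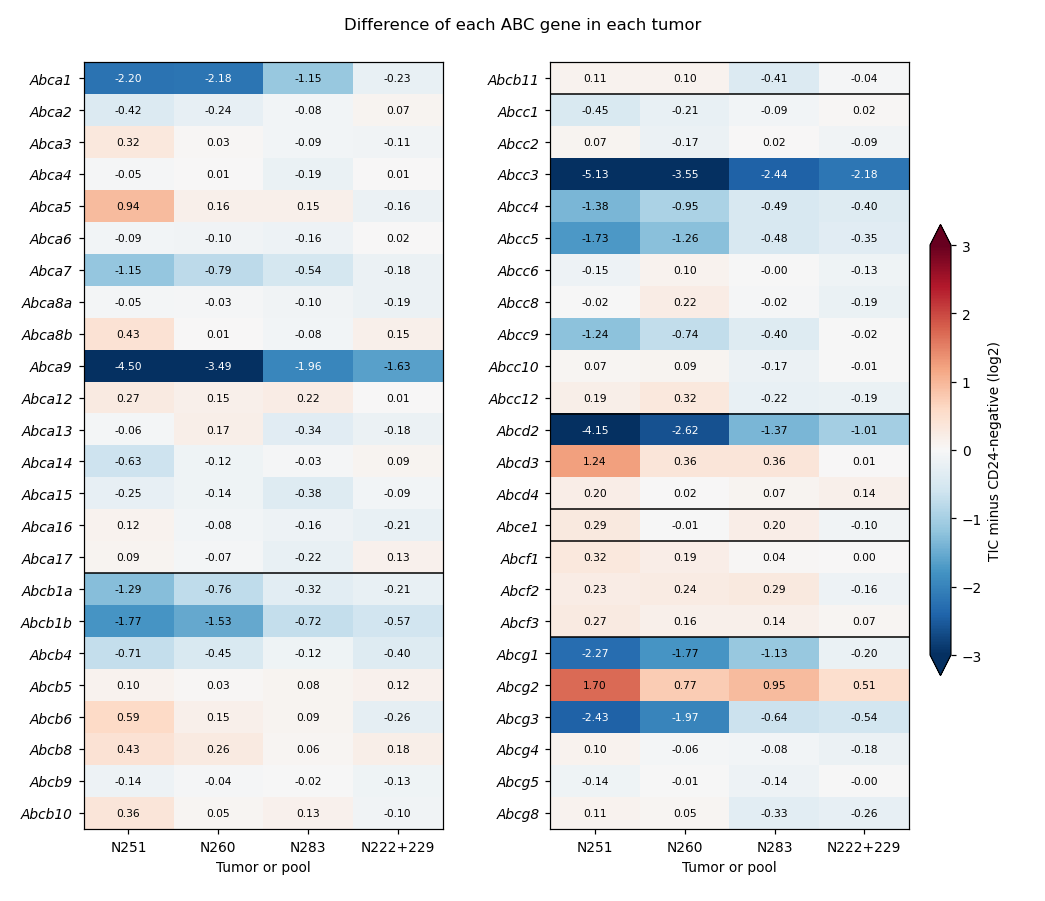
Difference of each of the 48 ABC genes (rows, with a line between subfamilies) in each tumor or pool (columns), as TIC minus CD24-negative on the log2 scale; blue is lower and red higher in the TIC fraction, and colour is capped at 3 in either direction. Abcc3, Abca9, Abcd2, Abcg3, Abca1, Abcg1 and Abcb1b are blue in every tumor, and Abcg2 is the only gene above 0.5 in every tumor.

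The 14 members under the lower quartile of gene signals in both fractions (6.13 in TIC, 6.19 in CD24-negative) were Abca4, Abca6, Abca8a, Abca8b, Abca12, Abca13, Abca14, Abca15, Abca16, Abcb5, Abcb11, Abcc2, Abcc12 and Abcg8. Several are known for tissue-restricted roles, such as Abca4 in the retina, Abca12 in the epidermis and Abcb11, the bile salt pump of the liver. Their differences ran from -0.21 (Abca15) to 0.16 (Abca12). At such signals a change can be hidden by background, which was not measured.

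**Figure D2:**
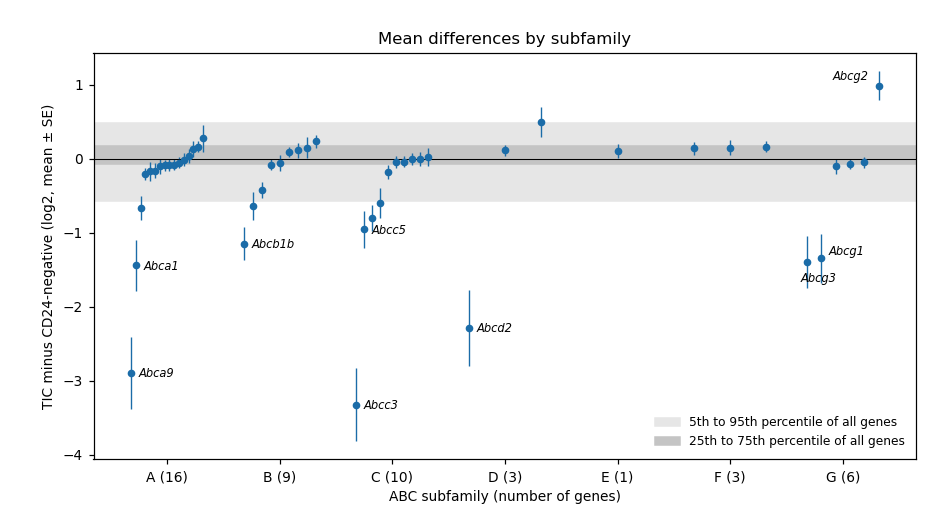
Mean difference (TIC minus CD24-negative, log2) of each ABC gene with its SE from the blocked fit, by subfamily, sorted from low to high within each; grey bands hold the middle of all 19938 genes. Most members lie inside the wide band from -0.58 to 0.48, with Abcc3, Abca9 and Abcd2 farthest below it, and Abcg2 and, by a little, Abcd3 above it.

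Abcg2 had the highest difference of the 48 genes. Its TIC values were 9.18, 9.12, 9.55 and 8.88 in N251, N260, N283 and the N222 and N229 pool, and its CD24-negative values 7.48, 8.35, 8.60 and 8.37. Every TIC array was above every CD24-negative array, the nearest being 8.88 in the pool and 8.60 in N283. The tumors gave differences of 1.70, 0.77, 0.95 and 0.51 in the same order. The mean of 0.98 ± 0.20 (SE), a 1.98-fold higher level, had a 95% interval of 0.50 to 1.47. It was not called (limma adjusted p = 0.0744). It was called with a random block (adjusted p = 0.0265), with array weights (adjusted p = 0.0279) and without N251 (0.74, adjusted p = 0.0257), in a range of 0.0257 to 0.306 over 14 alternatives.

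RefSeq (GRCm38.p6) gives Abcg2 3 transcription starts. The 250 bases before the third, which lie at chr6:58640296-58640545 on the plus strand, are shown for the member with the highest difference. This start was picked after the windows had been read, as the one with the most GC boxes: the first window holds 0 and the second 2. Which start the tumors used was not tested. Capitals mark the 4 GC boxes (GGGCGG on either strand), which begin 146, 106, 50 and 8 bases before the start.
Abcg2: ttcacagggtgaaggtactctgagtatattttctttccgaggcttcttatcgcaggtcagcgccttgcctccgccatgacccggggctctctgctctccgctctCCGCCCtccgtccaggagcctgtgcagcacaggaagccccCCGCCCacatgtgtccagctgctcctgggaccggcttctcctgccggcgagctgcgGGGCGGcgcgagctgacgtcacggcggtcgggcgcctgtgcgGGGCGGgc
The window is 67.6% G and C. GGGCGG stood in 20 of 45 such windows of ABC genes (44.4%) and in 32.7% of all 32851 windows, counting windows of the same length. Abca1, Abcb1b and Abcg3, all lower in every tumor, were among the genes with it. Of the 48 members 38 were in the promoter table. Not in it were Abca6, Abcb8, Abcc1, Abcc3, Abcc6, Abcc8, Abcd2, Abcd4, Abcg1 and Abcg4. A match is a description of the letters only.

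Abcg3, a rodent relative of Abcg2, went the other way. It was at 5.72, 6.09, 5.83 and 5.70 in the TIC arrays of N251, N260, N283 and the pool, and at 8.15, 8.06, 6.47 and 6.24 in the CD24-negative arrays. The TIC arrays were alike and low, and the spread lay in the CD24-negative arrays, with N251 and N260 high. All TIC arrays lay under the lower quartile of gene signals (6.13), so the size of the Abcg3 differences is uncertain. The mean difference was -1.39 ± 0.35 (SE) and was not called (limma adjusted p = 0.113). The difference of Abcg2 exceeded that of Abcg3 in every tumor, by 4.13, 2.74, 1.59 and 1.05 in the same order. The sterol transporters Abcg4, Abcg5 and Abcg8 lay near 0. They differed by -0.05, -0.07 and -0.11, with 95% intervals within -0.36 and 0.15.

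Abca1 and Abcg1, which export cellular cholesterol and phospholipid to lipoproteins and are known targets of the liver X receptors (LXR), were lower in all 4 tumors. Abca1 was at 10.07, 8.84, 9.15 and 10.02 in the TIC arrays of N251, N260, N283 and the pool, and at 12.27, 11.03, 10.29 and 10.25 in the CD24-negative arrays. Abcg1 was at 9.47, 8.51, 8.54 and 9.36 in the TIC arrays and at 11.74, 10.28, 9.67 and 9.56 in the CD24-negative arrays. In both genes the pool hardly differed (-0.23 and -0.20) while N251 differed by more than 2 (-2.20 and -2.27). Abca1 minus Abcg1 differences were 0.07, -0.41, -0.02 and -0.03 in N251, N260, N283 and the pool. The means were -1.44 ± 0.35 (SE) for Abca1 and -1.35 ± 0.33 for Abcg1 (limma adjusted p = 0.105 and 0.108). Without the pool they were -1.84 and -1.73 and were called (adjusted p = 0.0448 and 0.0460), and over 14 alternatives their adjusted p ran up to 0.365 and 0.373.

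The 250 bases before the start of Abca1 (GRCm38.p6, chr4:53159896-53160145, minus strand) are shown for the paired half-sites to which LXR is known to bind. Capitals mark GGTTA and GGTCA with 5 bases between them (either strand; here the minus-strand reading of the printed letters), a form of the receptor's repeat chosen after the sequence had been read. The match begins 67 bases before the start.
Abca1: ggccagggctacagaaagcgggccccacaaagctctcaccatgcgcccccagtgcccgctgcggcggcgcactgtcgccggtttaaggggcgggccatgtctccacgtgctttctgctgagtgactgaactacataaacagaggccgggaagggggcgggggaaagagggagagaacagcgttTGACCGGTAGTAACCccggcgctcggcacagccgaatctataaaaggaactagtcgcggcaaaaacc
This pattern stood in 15 of the 32851 windows (0.0457%). Since it was written from the Abca1 sequence, its presence there was fixed by the choice and is no finding. The textbook repeat, AGGTCA and AGGTCA again with 4 bases between, stood in 5 windows and in 0 of the 45 windows of ABC genes. Each of its half-sites is written with an added first letter, so its spacing is that of the pattern marked in Abca1.

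Other genes of LXR signalling and cholesterol efflux were read from a list of 17, of which 14 were measured. Of these 2 were called lower and 0 higher, with a median difference of -0.17. By sign, 8 were lower and 2 higher in all 4 tumors, beside 11.8% and 23.2% of all genes. Apoe, the apolipoprotein that takes up exported cholesterol, fell by 3.35 on the log2 scale (10.09 ± 0.49 in TIC against 13.44 ± 0.55, SD, n = 4; limma adjusted p = 0.0226). Lpl, the lipoprotein lipase, fell by 2.22 (adjusted p = 0.0265). Both are also made by macrophages. Nr1h3, which encodes LXR alpha, differed by -0.11 (adjusted p = 0.430), and Scarb1, an HDL receptor, by 0.38 (adjusted p = 0.0700). Abca7, a lipid transporter with a known role in phagocytosis, was lower in all 4 tumors, with differences of -1.15, -0.79, -0.54 and -0.18 in N251, N260, N283 and the pool. Its mean of -0.66 ± 0.16 (SE) was not called (adjusted p = 0.108, and 0.0477 with a random block, the lowest of a range up to 0.370).

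Abca9, a lipid transporter gene known to be induced as monocytes become macrophages, had the lowest difference of subfamily A. It was at 5.77, 5.84, 5.85 and 5.84 in the TIC arrays of N251, N260, N283 and the pool, and at 10.26, 9.33, 7.82 and 7.47 in the CD24-negative arrays. The TIC values were nearly equal and sat under the lower quartile of gene signals, while the CD24-negative values varied by tumor and did not overlap them. The mean of -2.89 ± 0.49 (SE), a difference of measured signals with the TIC side near the low end, was not called (limma adjusted p = 0.0540, and 0.0515 without the block). It was called in 4 of 13 alternatives, with adjusted p-values from 0.0116 (random block) to 0.3005 (without N260).

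Abca9 lies in a row of related genes on chromosome 11, in the order Abca8b, Abca8a, Abca9, Abca6 and Abca5. Abca8a, Abca8b and Abca6 differed by -0.09, 0.13 and -0.08, but all 3 were under the lower quartile in both fractions, where a change can be hidden. Abca5, well above it at 8.95 and 8.67, differed by 0.27. In N251 Abca9 differed by -4.50 while Abca5 differed by 0.94. The gap between Abca9 and Abca5 was -5.44, -3.65, -2.11 and -1.46 in N251, N260, N283 and the pool. The 250 bases before the start of Abca9 (GRCm38.p6, chr11:110168154-110168403, minus strand) are shown for the A gene with the lowest difference. Capitals mark GAGGAA on either strand, a core bound by the myeloid factor PU.1, which begins 42 bases before the start.
Abca9: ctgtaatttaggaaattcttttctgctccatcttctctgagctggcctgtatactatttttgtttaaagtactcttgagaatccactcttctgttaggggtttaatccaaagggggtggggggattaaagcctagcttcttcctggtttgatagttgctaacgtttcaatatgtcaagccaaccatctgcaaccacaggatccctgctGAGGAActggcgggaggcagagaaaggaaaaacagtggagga
GAGGAA stood in 14 of 45 windows of ABC genes (31.1%) and in 23.3% of all windows. The genes with it included Abca8a, Abca8b, Abcb1a, Abcb1b and, at its first start, Abcg2, the member with the highest difference.

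The remaining A genes above the lower quartile lay near 0. Abca3, which loads lipid into the lamellar bodies of the lung, averaged 10.27 ± 0.10 in TIC and 10.23 ± 0.10 in CD24-negative arrays (SD, n = 4). Its difference of 0.04 had no fixed sign: it was -0.07 after cyclic loess scaling and -0.05 without N251. Abca2, a lipid transporter of lysosomes, differed by -0.17 and Abca17 by -0.02. Of the 16 A genes 5 were lower and 1 higher in all 4 tumors, beside 11.8% and 23.2% of all genes. Their median was -0.09.

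The P-glycoprotein genes Abcb1a and Abcb1b, whose products pump many drugs out of cells, were lower in the TIC fraction of every tumor. Abcb1b was at 5.43, 5.22, 5.31 and 5.17 in the TIC arrays of N251, N260, N283 and the pool, and at 7.21, 6.76, 6.03 and 5.74 in the CD24-negative arrays. Abcb1a was at 6.45, 6.33, 6.35 and 6.47 in the TIC arrays and at 7.73, 7.09, 6.67 and 6.68 in the CD24-negative arrays. The fractions did not overlap for either gene, and the pool had the smallest difference for both (-0.57 and -0.21). The means were -1.15 ± 0.22 (SE) for Abcb1b and -0.65 ± 0.19 for Abcb1a (limma adjusted p = 0.0719 and 0.141). Abcb1b minus Abcb1a differences were -0.49, -0.77, -0.40 and -0.36, so that Abcb1b had the more negative difference in every tumor. All Abcb1b TIC arrays lay under the lower quartile of gene signals (6.13). Its CD24-negative arrays in N283 and the pool lay under that of their fraction (6.19). At such signals the size of these differences is uncertain. Abcb1b was called with a random block (adjusted p = 0.0263) and with array weights (adjusted p = 0.0348), in a range of 0.0263 to 0.324. These neighbouring copies are close in sequence, and whether their probes share signal was not tested.

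The 250 bases before the start of Abcb1b (GRCm38.p6, chr5:8797897-8798146, plus strand) are shown as those of the P-glycoprotein gene with the larger difference. Capitals mark 2 CCAAT boxes, the second on the opposite strand, and a GC box (GGGCGG), beginning 87, 66 and 48 bases before the start and not overlapping.
Abcb1b: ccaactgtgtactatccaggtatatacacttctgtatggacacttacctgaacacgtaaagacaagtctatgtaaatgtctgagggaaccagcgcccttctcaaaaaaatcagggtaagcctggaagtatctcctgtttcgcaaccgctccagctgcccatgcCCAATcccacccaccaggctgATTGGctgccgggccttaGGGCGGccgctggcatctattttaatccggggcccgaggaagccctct
CCAAT stood in 13 of 45 windows of ABC genes (28.9%) and in 33.8% of all windows, on either strand. The GAGGAA in this window is not marked.

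Abcb4, which moves phosphatidylcholine into bile, lies beside the P-glycoprotein genes and was also lower in all 4 tumors, with a mean of -0.42 ± 0.11 (SE, limma adjusted p = 0.118). The transporters linked to mitochondria had small positive means. Abcb8 was higher in all 4 tumors, at 0.23 ± 0.09 (SE, adjusted p = 0.201). Abcb10, which acts in heme synthesis, differed by 0.11 and Abcb6, a porphyrin transporter, by 0.14. Abcb6 differed by 0.59, 0.15, 0.09 and -0.26 in N251, N260, N283 and the pool, with a mean of -0.0057 without N251 and 0.278 without the pool. Of 15 listed genes of heme and iron-sulfur assembly 13 were measured, 0 were called and the median was 0.08. Cpox, an enzyme of heme synthesis, had a difference of 0.37 (adjusted p = 0.115).

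The peptide transporters were not called. Abcb9, a lysosomal peptide transporter, differed by -0.08 ± 0.07 (SE). Tap1 and Tap2, which carry peptides into the endoplasmic reticulum for MHC class I, averaged 9.40 ± 0.20 and 9.20 ± 0.18 in TIC arrays, against 9.42 ± 0.37 and 9.29 ± 0.27 in CD24-negative arrays (SD, n = 4). Their differences of -0.01 ± 0.12 and -0.09 ± 0.08 (SE) were not called (limma adjusted p = 0.969 and 0.554). Tap1 was lower in N251 and N260 (-0.35 and -0.15) and higher in N283 and the pool (0.23 and 0.23). Of 9 genes of the peptide loading complex 0 were called, with a median of 0.02.

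Abcc3 encodes an exporter of glucuronides and other organic anions. It was at 6.84, 7.07, 6.86 and 6.39 in the TIC arrays of N251, N260, N283 and the pool, and at 11.97, 10.62, 9.30 and 8.56 in the CD24-negative arrays. All TIC arrays were far below all CD24-negative arrays, and the latter spanned more than 3 units. Its differences were -5.13, -3.55, -2.44 and -2.18 in the same order. The mean of -3.32 ± 0.49 (SE), 10.01-fold lower, was called (limma adjusted p = 0.0424, 95% interval -4.53 to -2.12). Without the block its adjusted p was 0.0515, and without N260 or N283 it was 0.269 and 0.160, where 0 of all genes were called. The differences in those fits were -3.25 and -3.62, and its adjusted p ran from 0.00996 to 0.269 over 14 alternatives.

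Other exporters of subfamily C were lower without being called. Abcc5, an exporter of cyclic nucleotides, was at 6.91, 6.66, 6.78 and 6.61 in the TIC arrays of N251, N260, N283 and the pool, and at 8.64, 7.92, 7.26 and 6.96 in the CD24-negative arrays. The fractions did not overlap, the nearest arrays being 6.91 in the TIC fraction of N251 and 6.96 in the CD24-negative fraction of the pool. The mean was -0.96 ± 0.25 (SE, limma adjusted p = 0.117). Abcc4, which exports cyclic nucleotides and prostaglandins, averaged 6.35 ± 0.28 in TIC and 7.16 ± 0.67 in CD24-negative arrays (SD, n = 4), with a mean difference of -0.80 (adjusted p = 0.0887, and 0.0421 with array weights, in a range up to 0.3503). Abcc1, the exporter of glutathione conjugates and leukotriene C4, was at 8.55, 8.46, 8.54 and 8.52 in the TIC arrays of N251, N260, N283 and the pool, and at 9.001, 8.68, 8.63 and 8.498 in the CD24-negative arrays. It differed by -0.18 ± 0.10 (SE, adjusted p = 0.333), and its interval of -0.43 to 0.06 leaves room for a small shift in either direction. Without N251 the difference was -0.092.

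**Figure D3:**
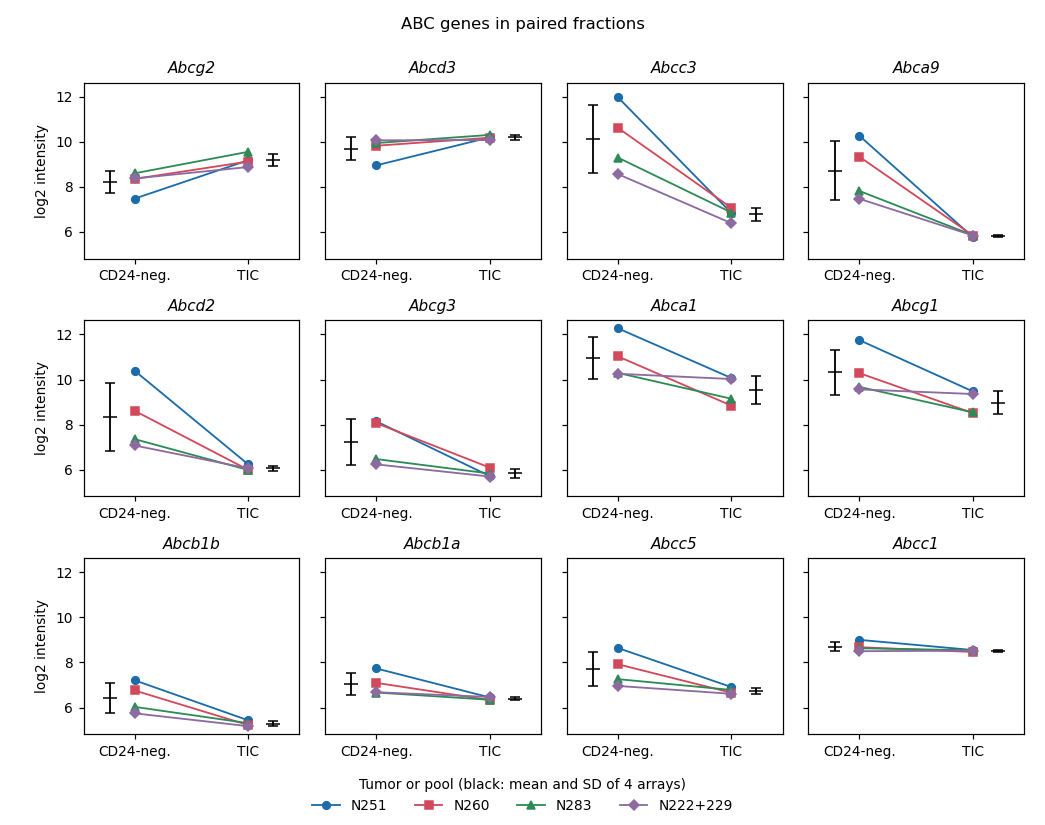
Log2 intensity of 12 ABC genes in the CD24-negative and TIC arrays, with a line for each tumor or pool and black marks for the mean and SD of 4 arrays. Lines slope up toward TIC for Abcg2 and Abcd3, down for Abcc3, Abca9, Abcd2, Abcg3, Abca1, Abcg1, Abcb1b, Abcb1a and Abcc5, and are nearly level for Abcc1; the spread is wider among the CD24-negative arrays for all of them.

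Abcc9, a sulfonylurea receptor that regulates a potassium channel, was lower in all 4 tumors (-1.24, -0.74, -0.40 and -0.02 in N251, N260, N283 and the pool) and was not called (limma adjusted p = 0.169). Its channel partner Kcnj8 differed by 0.58 ± 0.13 (SE, adjusted p = 0.0939), and Abcc8 and Kcnj11, the other receptor and channel, by -0.0044 and 0.06. Abcc6 and Abcc10 differed by -0.05 and -0.0078. Cftr, the chloride channel of the family, averaged 5.17 ± 0.07 in TIC and 5.08 ± 0.25 in CD24-negative arrays (SD, n = 4), under the lower quartile of gene signals in both. Of 20 listed xenobiotic sensors and conjugating enzymes 19 were measured, 0 were called and the median was 0.01. Nfe2l2, the regulator of the antioxidant response, differed by -1.18 (adjusted p = 0.118).

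The peroxisomal transporters split. Abcd2, which imports very long chain fatty acids, was at 6.24, 5.996, 5.99 and 6.06 in the TIC arrays of N251, N260, N283 and the pool, and at 10.39, 8.61, 7.36 and 7.08 in the CD24-negative arrays. The TIC arrays lay together near the lower quartile, and all CD24-negative arrays were above them. The mean of -2.29 ± 0.52 (SE), again with a dim TIC side, was not called (limma adjusted p = 0.0932). It was called with a random block, with array weights and without N251 (adjusted p = 0.0373, 0.0408 and 0.0386, in a range up to 0.354).

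Abcd3, the abundant peroxisomal membrane protein that imports branched fatty acids, was at 10.19, 10.18, 10.30 and 10.07 in the TIC arrays of N251, N260, N283 and the pool, and at 8.95, 9.82, 9.94 and 10.06 in the CD24-negative arrays. The fractions did not overlap, though in the pool they differed by 0.01 and in N251 by 1.24. The mean of 0.49 ± 0.20 (SE) was not called (limma adjusted p = 0.226), and it was 0.24 without N251. The difference of Abcd3 exceeded that of Abcd2 by 5.39, 2.97, 1.73 and 1.02 in N251, N260, N283 and the pool. Abcd4, which takes part in cobalamin release from lysosomes, was higher in all 4 tumors by a mean of 0.11 ± 0.07 (SE). Of 14 listed genes of peroxisomal oxidation and assembly 12 were measured and 0 were called, with a median of 0.18. Of the 12, 4 were higher in all 4 tumors, beside 23.2% of all genes.

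The soluble members were near even between fractions. Abce1, which splits ribosomes after termination, was at 10.25, 10.58, 10.56 and 10.82 in the TIC arrays of N251, N260, N283 and the pool, and at 9.96, 10.59, 10.36 and 10.92 in the CD24-negative arrays. The fractions overlapped widely, and its levels differed more between tumors than between fractions. The mean was 0.10 ± 0.09 (SE, limma adjusted p = 0.576), and -0.0018 after cyclic loess scaling. Abcf1, Abcf2 and Abcf3, which act in translation initiation and its control, differed by 0.14, 0.15 and 0.16 with intervals from -0.10 to 0.40, and 0 were called. Abcf1 and Abcf3 were higher in all 4 tumors. Of 13 listed partners in ribosome recycling and initiation 9 were measured and 0 called, with a median of 0.06.

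The size of the differences varied by tumor. Of the 17 members lower in all 4 tumors, 14 had their most negative value in N251 and 14 their least negative in the pool. In 12 of the 17 the order was N251, N260, N283 and the pool. Of the 8 members higher in all 4 tumors, 7 had their highest value in N251. For these counts the share among all genes was not taken, so they show no trait particular to ABC genes. Of the 599 genes of the whole array that were lower in all tumors by a mean of 1 or more, 95.3% also had their most negative value in N251. The 7 members lower to that extent were among them, each with its most negative value in N251. The macrophage markers differed by a mean of -5.36, -4.64, -3.80 and -2.84 in N251, N260, N283 and the pool. The luminal markers differed by 0.97, 0.31, 0.05 and 0.04.

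**Figure D4:**
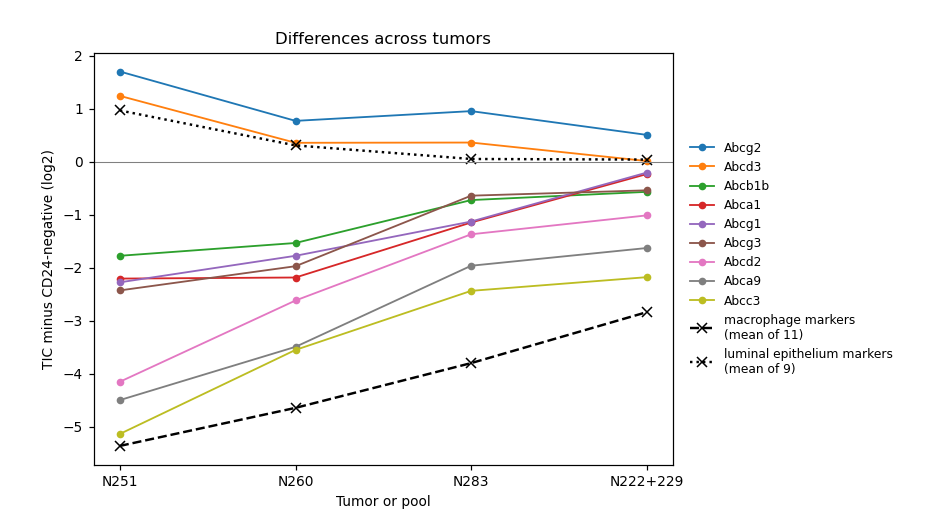
Differences (TIC minus CD24-negative, log2) of 9 ABC genes and the mean differences of 11 macrophage and 9 luminal markers (black) in each tumor or pool; lines join the values of a gene or marker list. N251 is the extreme for all 9 genes and both lists, and the genes there run from 1.70 for Abcg2 to -5.13 for Abcc3.

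The spread between arrays lay mostly in the CD24-negative fraction. Of the 48 members 34 had the larger SD there, a share close to the 65.3% of all genes. A member's SD had a median of 0.13 in TIC and 0.22 in CD24-negative arrays. Abcc3 and Abcd2 had CD24-negative SDs of 1.502 and 1.51, against 0.29 and 0.12 in the TIC fraction. Of other markers, 5 of 8 pan-leukocyte genes were called lower and 7 were lower in all 4 tumors. Lowest were Cd53, Laptm5, Ptprc and Arhgdib (-5.50, -5.26, -4.29 and -4.24). Of 7 T and NK cell genes 2 were called lower, Cd3g (-5.62) and Gzmb (-4.94). All 7 were lower in all 4 tumors, with a median of -2.43. Of 8 fibroblast genes 1 was called lower, Thy1 (-1.73), a gene that T cells share. By sign 6 were lower in all 4 tumors, beside 11.8% of all genes. Of the basal and myoepithelial list 1 of 8 was called higher, the oxytocin receptor gene Oxtr (1.21, limma adjusted p = 0.0457). From that list 3 were higher in all 4 tumors, beside 23.2% of all genes. Of 8 endothelial, 6 pericyte and smooth muscle, 6 adipocyte and 2 measured erythroid genes 0 were called, with medians of -0.13, -0.08, -0.0067 and 0.05.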

How the data were processed

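The authors deposited log2 intensities per transcript cluster, made with RMA and Partek per the submitters' processing notes, with versions, settings and build not stated in the sources used. Of 35556 rows, 21789 carried exactly 1 symbol in the platform annotation, 1621 several and 12146 none. Symbols were looked up in RefSeq (GRCm38.p6), which renamed 0. The brightest row by the mean of 8 arrays stood for a gene, which mattered for 1 member, Abcb5. Differences were fitted with limma 3.58.1 (lmFit, eBayes; R 4.3.3) over 19938 genes with the tumor as a fixed replicate block, since both fractions came from the same tumor or pool per the labels. As a check of the pairing, both arrays of a tumor deviated from their fraction's mean together, with correlations over genes of 0.322, 0.435, 0.300 and 0.557 (tumors in the order of the text). P-values were adjusted over all genes (Benjamini-Hochberg). Exact tests over 4 pairs cannot go below 0.125, so none was used. The number of arrays limits the precision. The p-values set the mean paired difference against its variation between the 4 pairs, with variances moderated by eBayes over all genes. The pool of N222 and N229 counts as 1 pair.

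The members, lists and rules were chosen with earlier results of these data known. The text names Abcg2, Abcb1a, Abcb1b, Abcc1, Tap1, Tap2 and Cftr, all called members, and in each subfamily the brightest gene and the 2 with the largest differences among those of the same sign in all 4 tumors. Of the other lists it names called members, up to 4 a list. Other genes were chosen after their values were seen. Alternatives covered the block, filters, scaling, weights, thresholds and each tumor left out.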

Additional observations from a re-analysis of the deposited data

Results flagged for a closer look

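Of 102 groups of 4 arrays, made of 51 genes in either fraction, 7 held an array far from the other 3; chance gives about 1 in 20. In the TIC fraction these were Abca14 at 5.94 in the pool of N222 and N229 (others 5.69 to 5.71), Abca17 at 6.44 in N251 (others 6.20 to 6.23) and Abca9 at 5.77 in N251 (others 5.84 to 5.85). Abcb9 was at 6.99 in the TIC array of the pool (others 7.47 to 7.52), and Abcf1 at 8.93 in the same array (others 9.26 to 9.30). In the CD24-negative fraction Abca12 was at 6.04 in the pool (others 5.79 to 5.82) and Abcf2 at 8.91 in N251 (others 9.20 to 9.25).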

How the results depend on the processing

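The 1 member called lower, Abcc3, was not called with no replicate block (0 members), with genes at or above the median level, with every transcript cluster tested and at an adjusted p under 0.01. With every transcript cluster tested only 2 of the 19938 genes were called lower and 0 higher. The lower count was 2 after median centring, where 314 of all genes were called lower. It was 5 under array weights, and also under a random block for the tumor. Leaving out a tumor gave 0 to 3 lower and 0 to 1 higher. Without the pool 3 members were lower, where 299 of all genes were called lower. The higher count of 0 became 1, Abcg2, with a random block, with array weights and without N251. Without N260 or N283, 0 of all genes were called by limma. In those fits 11 and 12 members were lower and 1 and 2 higher at an unadjusted p under 0.05. The share of all genes at that level was not taken, so these counts show no trait particular to ABC genes. Among the alternative values of named genes 258 kept direction and side of the threshold, 14 came to pass it, 5 ceased to, and 10 changed sign, all of them near 0. Abca3 turned to -0.0080 with array weights and -0.066 after cyclic loess, with -0.054 to 0.087 on leaving out a tumor. Abcb6 ranged from -0.0057 to 0.278 and Cftr from -0.018 to 0.188 when a tumor was left out. Abce1 turned to -0.0018 after cyclic loess. Tap1 turned to 0.027 with array weights and 0.035 after median centring, with -0.092 to 0.101 without a tumor. The cause was not tested. Medians of subfamilies moved by less than their SD over tumors in 53 fits and by more in 3. No scaling moved the median of all genes (0.04) outside 0.0016 to 0.085.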
